A study of Saccharomyces cerevisiae with 6 samples.

Results

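The 10 genes *REC107*, *REC102*, *REC114*, *DMC1*, *SAE3*, *HOP2*, *MND1*, *GMC2*, *AMA1* and *SPO1* act in meiotic recombination and spore formation, and each carries an intron. They were taken by gene name from the junction tables of yeast cells that were dividing by mitosis, and they make up 10 of the 282 genes and 11 of the 293 introns in those tables. *HOP2* has 2 introns and the other 9 genes have 1 each, and all 11 introns lie between coding exons. No other annotated gene overlaps any of them. The study compared 3 *upf1Δ* libraries with 3 *prp18Δupf1Δ* libraries of the haploid strain background BY4741, to ask what the second-step splicing factor Prp18p does at the 3′ splice site (3′SS). The genotypes were upf1-delta::HIS3MX6 in the first group and upf1-delta::HIS3MX6 with prp18-delta::kanMX6 in the second. Both groups therefore lacked Upf1p, the helicase of nonsense-mediated mRNA decay (NMD), so that transcripts with a premature stop codon were kept from that decay in all 6 libraries. Cultures were grown in the rich medium YPD to an OD600 of 0.6, a state of mitotic growth and not of meiosis.

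Meiotic recombination starts with DNA breaks made by Spo11p and its partners, continues with strand exchange by the recombinase Dmc1p and its helpers, and is followed by synapsis and the meiotic divisions. Several of these genes are controlled at splicing as well as at transcription. In meiosis, the splicing factor Mer1p binds an element in a few introns, those of *REC107* and *AMA1* among them, and allows their removal, and Mer1p itself is made only in meiosis. Splicing needs a 5′ splice site (5′SS), with the consensus GUAUGU in yeast, a branch point, with the consensus UACUAAC, and a 3′SS that is usually UAG or CAG.

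The introns and 10 nt of exon on each side are shown for the members whose reads carried the comparisons, since the sites that the reads used can be read in them. The sequences come from the R64 genome, to which both splice sites of all 293 introns and of 4993 alternative junctions in the tables matched. Capitals mark, from left to right, the annotated 5′SS, the branch point and each 3′SS described in the text, of which the annotated one is the last except in *HOP2* intron 2, where it is the first.
REC107: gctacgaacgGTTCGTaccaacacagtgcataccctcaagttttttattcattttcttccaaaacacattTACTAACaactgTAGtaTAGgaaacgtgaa
REC102: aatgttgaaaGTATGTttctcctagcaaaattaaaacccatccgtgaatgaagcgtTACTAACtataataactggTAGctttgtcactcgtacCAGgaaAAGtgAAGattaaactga
REC114: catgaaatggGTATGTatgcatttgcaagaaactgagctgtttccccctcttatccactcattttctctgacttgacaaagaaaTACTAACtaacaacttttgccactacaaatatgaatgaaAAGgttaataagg
HOP2 intron 2: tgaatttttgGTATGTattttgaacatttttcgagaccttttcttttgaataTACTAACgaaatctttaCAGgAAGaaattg
DMC1: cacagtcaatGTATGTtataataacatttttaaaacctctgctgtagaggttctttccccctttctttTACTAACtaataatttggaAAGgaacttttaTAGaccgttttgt
AMA1: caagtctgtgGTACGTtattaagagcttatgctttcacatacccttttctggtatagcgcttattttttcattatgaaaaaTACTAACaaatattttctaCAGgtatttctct

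In R64 the *REC107* intron lies at chrX:469184-469263 on the minus strand, and the others shown lie on the plus strand, *REC102* at chrXII:786616-786712, *REC114* at chrXIII:537449-537564, *HOP2* intron 2 at chrVII:436313-436374, *DMC1* at chrV:548553-548644 and *AMA1* at chrVII:946328-946420. A further 5′SS of *REC107*, the GCAGGU in capitals at 142 nt upstream of the annotated one, lies in the first exon within chrX:469386-469415.
REC107 upstream 5′SS: actggaatggGCAGGTaaactggaattgga

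The meiotic introns often departed from the consensus at 1 or more of their sites. The annotated 3′SS was AAG in 3 of the 11 (*REC102*, *REC114* and *SAE3*), against 14 of the 281 introns with annotated junction reads (4.98%). These 281, used for the 5′SS and branch point too, include 10 of the 11 and the introns of ribosomal protein genes. The 5′SS was GUAUGU in 6 of the 11, against 219 of 281 (77.9%), and the other 5 had GUUCGU in *REC107*, GUACGU in *AMA1*, GUAAGU in *GMC2* and *SPO1*, and GUUAAG in intron 1 of *HOP2*. The branch point was UACUAAC in 7 of the 11, against 234 of 281 (83.3%), and the exceptions were *GMC2*, *MND1*, *SAE3* and *SPO1*. The introns were 62 to 116 nt long with a median of 84 nt, and the 167 other introns outside ribosomal protein genes (RPGs) had a median of 96 nt. From the branch-point A to the last base of the intron, the distance ran from 14 nt in *REC107* and *HOP2* intron 2 to 45 nt in *REC102*, with a median of 26 nt against 30 nt in the other introns outside RPGs.

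An element of the kind that Mer1p binds was searched for as ACACCCTC, ACACCCTT, ATACCCTC or ATACCCTT on the transcribed strand of each intron. It was found in *REC107*, where ATACCCTC starts at base 20 of the intron, and in *AMA1*, where ATACCCTT starts at base 29. Of the 281 introns with annotated reads, 4 (1.42%) held a match, the other two being the introns of the RPGs *RPL29* and *RPL2A*. A match says only that these letters are present. *HFM1* and *SPO22*, whose introns also depend on Mer1p, and *MEI4* were looked for under these names. They were not found among the genes listed, and so were not analysed here.

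**Figure D1:**
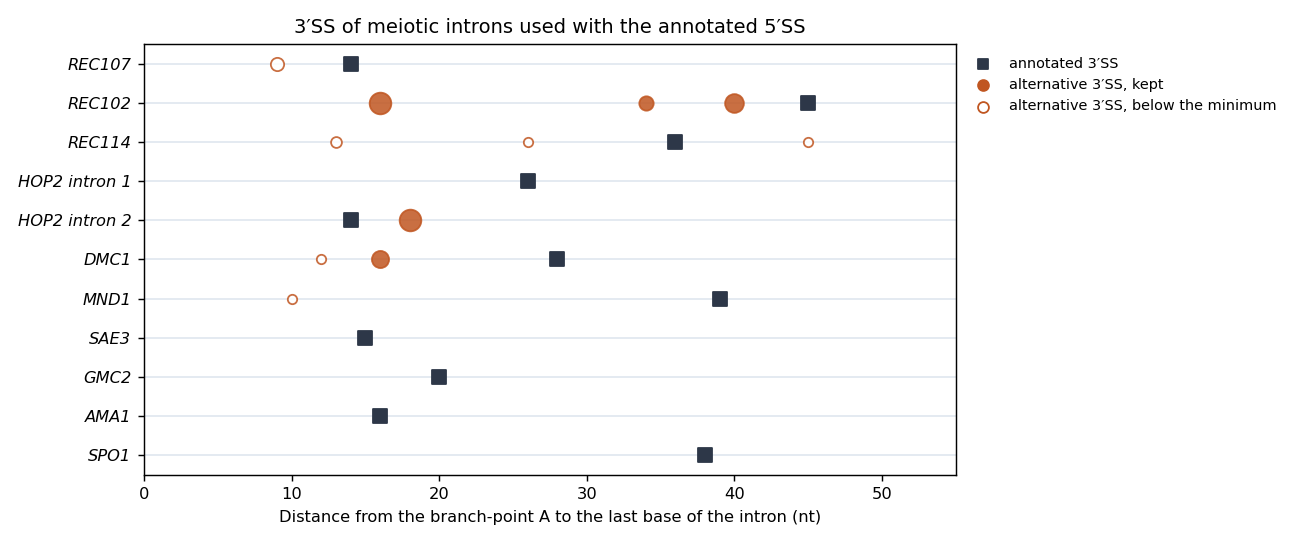
Each row is a meiotic intron and the horizontal axis is the distance in nt from the branch-point A to the last base of the intron, with the annotated 3′SS as squares and alternative 3′SS used with the annotated 5′SS as circles whose area grows with the reads over 6 libraries (open circles did not pass the filters or the minimum of 6 gapped reads). In *REC102* the annotated 3′SS lies at 45 nt and 3 alternative sites lie upstream of it, while in *HOP2* intron 2 the alternative site lies downstream.

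The depth at these introns was low. Each library held 791819 to 1502384 reads of annotated junctions, and the 11 meiotic introns took 107, 96 and 94 of those from *upf1Δ*, against 83, 50 and 44 of those from *prp18Δupf1Δ*. The median intron tested had 7913 reads over the 6 libraries, so values of the meiotic introns carry more counting error than those of most introns. In both strains, replicate 1 differed from the other two over all introns, with a chi-square per degree of freedom of 111 to 121 in *upf1Δ* and 112 to 114 in *prp18Δupf1Δ*, against 14.2 and 5.74 between the others, and results that change without it are given with and without it. Nothing in the labels or methods states that replicates were grown as separate cultures, and the tests measure library-to-library spread, which may be technical. The deletions could not be checked, since neither *PRP18* nor *UPF1* has an intron.

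Meiotic transcripts were present in each library, and 1 of them made up most of the unspliced reads. Unspliced reads are the mean of 2 counts, of reads that run through the 5′SS and of reads that run through the 3′SS of an intron. *REC107* alone accounted for 457.5, 585 and 642 unspliced reads in *upf1Δ* and for 827.5, 660 and 607 in *prp18Δupf1Δ*, which was 88.1% to 93.2% of all unspliced reads of the 11 introns. Of the 11 introns, 10 were seen spliced at the annotated junction in at least 1 library. The test was run on introns with reads in all 6 libraries, which left 5, those of *REC107*, *REC102*, *REC114* and *DMC1* and intron 2 of *HOP2*. The other 6 were left out of it and are described by their counts. An intron with no gapped read in a library is not listed there, so its unspliced reads in that library are unknown. Introns without a gapped read in a library could therefore not be tested, and counts of falls cover introns listed in all 6 libraries only. Of the 10 genes, 9, 9 and 10 were listed in the *upf1Δ* libraries, and 8, 6 and 5 in those of *prp18Δupf1Δ*.

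Annotated splicing fell in all 3 tested introns of genes for break formation, *REC107*, *REC102* and *REC114*. It did not pass the test in the 2 tested introns of genes for strand exchange, *HOP2* and *DMC1*. Their log2 changes of spliced over unspliced reads, -0.44 ± 0.88 and -1.93 ± 2.24 (standard error), were too imprecise to show a split by role. The count of falls was thus 3 of 5, beside 222 of all 272 introns tested (81.6%). No intron, meiotic or other, passed as higher (0 of 272, 0.00%). By edgeR 0 were higher at an unadjusted p under 0.05, and by DESeq2 0 were higher at an adjusted p under 0.05. The median log2 change of the ratio of spliced to unspliced reads was -2.09 over the 5 meiotic introns, -1.92 over all 272 and -2.16 over the 163 other introns outside RPGs. Splicing efficiency (SE) is the annotated junction reads over the annotated junction plus unspliced reads of the intron, in percent. The SE of the *prp18Δupf1Δ* libraries lay below that of all *upf1Δ* libraries in 3 of the 5, and in 225 of 272 introns (82.7%).

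**Figure D2:**
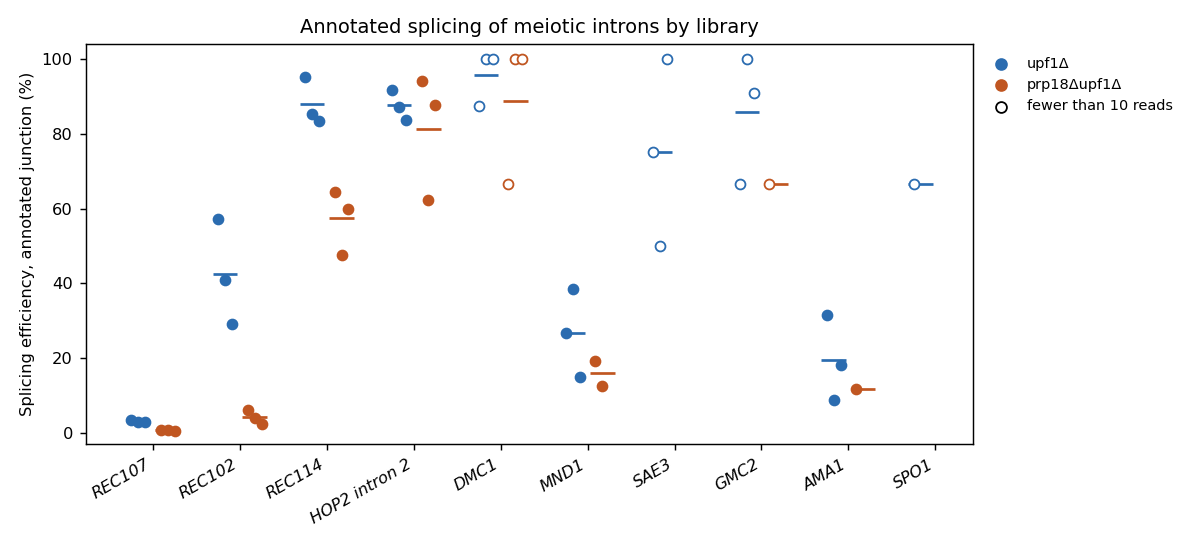
The vertical axis is the SE of the annotated junction in percent and each point is a library, blue for *upf1Δ* and orange for *prp18Δupf1Δ*, open where the library had fewer than 10 reads at the intron, with a bar at the group mean. The groups are apart in *REC107*, *REC102* and *REC114*, they overlap in *HOP2* intron 2 and *DMC1*, and the introns to the right have few reads or no value in *prp18Δupf1Δ*.

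*REC107*, also called *MER2*, encodes a subunit of the complex with Rec114p and Mei4p that Spo11p needs to break DNA, and its intron was hardly spliced in either strain. The annotated junction had 17, 18 and 20 reads in *upf1Δ* and 6, 6 and 4 reads in *prp18Δupf1Δ*. The SE was 3.58%, 2.99% and 3.02% in *upf1Δ*, the lowest but 1 of the 272 introns tested, and 0.720%, 0.901% and 0.655% in *prp18Δupf1Δ*. All *prp18Δupf1Δ* libraries were below all *upf1Δ* libraries. The ratio of spliced to unspliced reads changed by -2.09 ± 0.32 on the log2 scale (SE of the fit, edgeR's quasi-likelihood test, adjusted p = 0.000651), a 4.25-fold fall that was ranked 118 of 272 by size, close to the median intron. The fall was called under each alternative that was run.

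*REC102* encodes a partner of Spo11p in its core complex and had the largest fall among the meiotic introns. It counted 8, 10 and 7 annotated junction reads against 6, 14.5 and 17 unspliced reads in *upf1Δ*. In *prp18Δupf1Δ* the annotated reads were 3, 2 and 1 and the unspliced reads 45, 46.5 and 42. The SE thus went from 57.1%, 40.8% and 29.2% to 6.25%, 4.12% and 2.33%, with no overlap between the strains. The log2 change was -3.91 ± 0.70 (adjusted p = 0.00131 by edgeR), or 15.0-fold, and it was ranked 11 of 272. It was called under each alternative that was run, at log2 changes of -4.31 to -3.53 when libraries were left out. The sum of 6 annotated reads in *prp18Δupf1Δ* limits the precision of its size.

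*REC114* encodes a further subunit of the Rec107p complex, and unlike *REC107* its intron was mostly removed in *upf1Δ*. The annotated reads were 30, 26 and 20 in *upf1Δ* and 10, 10 and 6 in *prp18Δupf1Δ*, beside 1.5, 4.5 and 4 and then 5.5, 11 and 4 unspliced reads. The SE was 95.2%, 85.2% and 83.3% against 64.5%, 47.6% and 60.0%, and the strains did not overlap. The log2 change was -2.52 ± 0.73 (adjusted p = 0.0125 by edgeR). Without *prp18Δupf1Δ* replicate 2, the library with the most unspliced reads, it was -2.18 and missed the threshold (adjusted p = 0.0575). The 3 break-formation introns thus fell from very different starting points, and 2 of them, *REC102* and *REC114*, end in AAG.

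*HOP2* encodes the partner of Mnd1p in a complex that promotes homologous strand exchange by Dmc1p. Its intron 2 had 28, 27 and 31 annotated reads in *upf1Δ* and 56, 29 and 32 in *prp18Δupf1Δ*. The unspliced reads were 2.5, 4 and 6, and then 3.5, 17.5 and 4.5. The SE was 91.8%, 87.1% and 83.8% in *upf1Δ*, and 94.1%, 62.4% and 87.7% in *prp18Δupf1Δ*, so that 2 of the 3 libraries without Prp18p lay within or above the *upf1Δ* range. The log2 change was -0.44 ± 0.88 (adjusted p = 0.651 by edgeR), one of the smallest among introns tested (ranked 249 of 272). It was 0.60 without *prp18Δupf1Δ* replicate 2 and -1.20 without replicate 1 of that strain, so neither a fall nor a lack of change was shown.

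Intron 1 of *HOP2*, at chrVII:435680-435749, had no annotated junction read in any library. It was listed in *upf1Δ* replicates 1 and 3 alone, through 2 reads in each of a junction from a GUAUGU that lies 405 nt upstream of the annotated 5′SS to the annotated 3′SS. This 475 nt junction starts at base 435275 of chromosome VII, 350 nt before the start codon and outside any annotated gene. Its 4 gapped reads fell below the minimum of 6. The same 2 libraries had 0 unspliced reads at intron 1, while intron 2 had 28 and 31 annotated reads there.

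*DMC1*, the meiotic recombinase, was seen spliced in each library at few reads. The annotated reads were 7, 7 and 3 in *upf1Δ* and 2, 1 and 1 in *prp18Δupf1Δ*, while 1 unspliced read was counted in replicate 1 of each strain and none in the others. The SE was 87.5% in *upf1Δ* replicate 1, 66.7% in *prp18Δupf1Δ* replicate 1 and 100% in the other 4 libraries. The log2 change of -1.93 ± 2.24 (adjusted p = 0.445 by edgeR) had an error larger than itself, and it was 0.61 without *prp18Δupf1Δ* replicate 1. limma on log2 ratios called it at -1.71 (adjusted p = 0.0458), a fit in which the libraries with 1 or 2 reads weigh as much as the others. A difference in *DMC1* splicing was not detectable at this depth by edgeR.

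**Figure D3:**
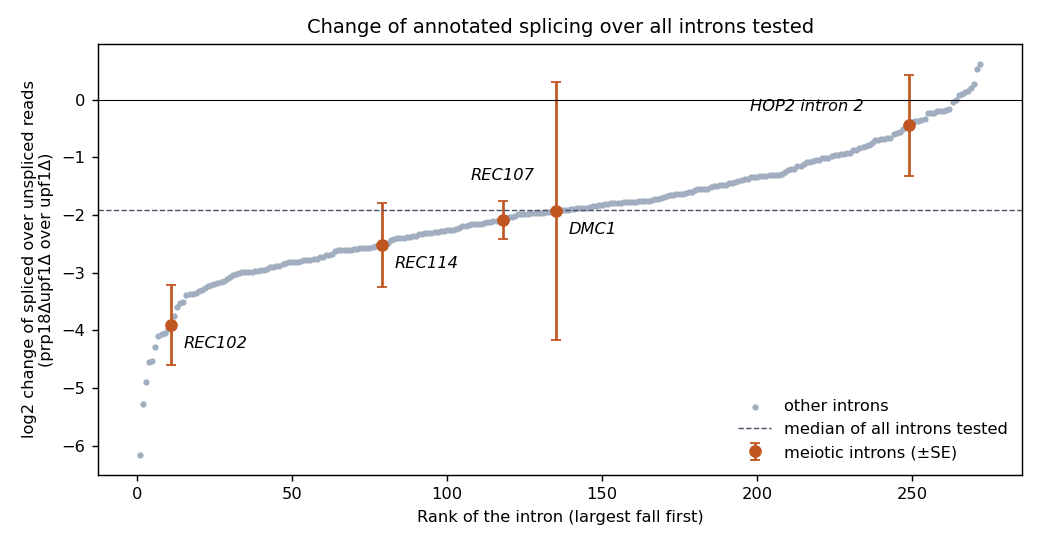
The 272 introns tested are ordered along the horizontal axis by their change in annotated splicing, given on the vertical axis as the log2 change of spliced over unspliced reads in *prp18Δupf1Δ* over *upf1Δ*, with the meiotic introns in orange with the SE of the fit and the median of -1.92 as a dashed line. *REC102* is near the left end, *REC114*, *REC107* and *DMC1* lie around the median, and *HOP2* intron 2 is near 0.

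The remaining members were close to the limit of detection. For strand exchange, *MND1*, the partner of *HOP2*, had 4, 5 and 3 annotated reads and 11, 8 and 17 unspliced reads in *upf1Δ*, and 3 and 2 annotated reads with 12.5 and 14 unspliced reads in *prp18Δupf1Δ* replicates 1 and 2, while replicate 3 did not list it. The SE of *MND1* was 15.0% to 38.5% in *upf1Δ* and 12.5% and 19.4% in *prp18Δupf1Δ*, which overlapped and were not tested. Replicate 3 of *prp18Δupf1Δ* has no SE for want of a gapped read, so the overlap is one of listed libraries only. *SAE3*, whose product helps Dmc1p onto DNA, had 3, 1 and 1 annotated reads and 1, 1 and 0 unspliced reads in *upf1Δ* and was not listed in any *prp18Δupf1Δ* library. *GMC2*, which encodes a part of the central element of the synaptonemal complex, had 1, 1 and 5 annotated reads in *upf1Δ* and 1 in *prp18Δupf1Δ* replicate 1, with at most 0.5 unspliced reads.

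*AMA1* encodes a meiosis-specific activator of the anaphase-promoting complex, and its intron holds a match to the Mer1p element, as that of *REC107* does. Summed over the *upf1Δ* libraries, the intron of *AMA1* had more unspliced reads than annotated junction reads, and so did those of *REC107*, *MND1* and *REC102*. For *REC102* this holds for the annotated junction only. With its alternative 3′SS counted, it had 44 spliced reads beside 37.5 unspliced reads. The introns of *MND1* and *REC102* hold no match. The annotated reads were 9, 1 and 3 in *upf1Δ*, beside 19.5, 10.5 and 13.5 unspliced reads, and 2 beside 15 in *prp18Δupf1Δ* replicate 1, the only library of that strain that listed it. The SE was 31.6%, 8.70% and 18.2% in *upf1Δ*, and the 11.8% in *prp18Δupf1Δ* lay within this range. A library without a gapped read has no SE, so libraries with unspliced reads alone would be missing from this comparison. *SPO1*, which is needed for spore formation, had 1 annotated read and 0.5 unspliced reads in *upf1Δ* replicate 3 and was not listed elsewhere. Of the other meiosis genes with introns, *PCH2*, an ATPase of the meiotic checkpoint, was in the tables, with 5, 6 and 4 annotated reads in *upf1Δ*, 3 and 2 in *prp18Δupf1Δ* replicates 1 and 3, and none listed in replicate 2.

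Alternative junctions were listed for 7 of the 11 introns, 23 in all, of which 6 passed the filters on overhangs and mismatches and the minimum of 6 gapped reads over the 6 libraries. These 6 were 3 alternative 3′SS in *REC102*, 1 each in *DMC1* and *HOP2* intron 2, and an alternative 5′SS in *REC107*. The other 17 had 1 to 4 gapped reads each. The use of a junction is given as its reads over the annotated junction reads, the fraction of annotated splicing (FAnS) on a log2 scale. By this measure 180 of all 562 alternative 3′SS tested rose (32.0%) and 43 fell (7.65%). None of the 5 meiotic ones was called in either direction by edgeR or by DESeq2, with 0 at an unadjusted p under 0.05 by edgeR. Their log2 changes were 0.13 to 1.59 with standard errors of 0.83 to 3.58, and the median was 1.29, against 0.90 over the 562. The alternative 5′SS of *REC107* was not called by its use either, where 6 of 322 alternative 5′SS rose (1.86%) and 52 fell (16.1%). These 322 were taken with either an annotated or an alternative 3′SS, while the *REC107* junction has the annotated one.

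The alternative junction of *REC107* with the GCAGGU 5′SS had more reads than its annotated junction in all *upf1Δ* libraries. It joins this 5′SS to the annotated 3′SS and removes 222 nt. It had 24, 42 and 21 reads in *upf1Δ*, beside 17, 18 and 20 annotated reads, and 6, 9 and 13 in *prp18Δupf1Δ*, beside 6, 6 and 4. Its reads relative to annotated reads changed by 0.15 ± 0.55 on the log2 scale (adjusted p = 0.879 by edgeR), so that the alternative and the annotated junction could not be told to differ. Relative to annotated plus unspliced reads the junction fell by 1.88 ± 0.42 on the log2 scale (adjusted p = 0.000966), where 60 of 322 alternative 5′SS fell (18.6%) and 4 rose (1.24%). Without replicate 1 of both strains this was -1.52 and missed the threshold (adjusted p = 0.0564).

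Reads from the upstream 5′SS, with any 3′SS, made up 24 of 42, 42 of 61 and 21 of 45 gapped junction reads of *REC107* in *upf1Δ* and 7 of 14, 10 of 19 and 13 of 19 in *prp18Δupf1Δ*. Pooled, this was 58.8% (95% Clopper-Pearson interval 50.4 to 66.8%) and 57.7% (43.2 to 71.3%). These intervals, like those that follow, cover counting error only. Of the 136 gapped reads behind the junction with the annotated 3′SS, a count that the tables give beside the junction reads and that can exceed them, 118 were aligned across it by BBMap alone, 18 by STAR alone and 0 by both, and 133 had no mismatch near it. The same spliced product would arise from 3 positions of this junction, since bases at its ends are alike, and this holds for the annotated *REC107* junction too. The spliced product reads 60 codons before a stop, against 314 for the annotated product and 131 for unspliced RNA.

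A UAG at 5 nt upstream of the annotated 3′SS of *REC107*, 9 nt from the branch-point A, was used with 3 different 5′SS, each of them under the minimum. It was chosen after its values were seen. Summed over 5′SS, it took 0 of 42, 0 of 61 and 2 of 45 reads at both 3′SS in *upf1Δ* and 2 of 14, 3 of 18 and 2 of 19 in *prp18Δupf1Δ*. The pooled share was 1.35% (0.164 to 4.80%) against 13.7% (5.70 to 26.3%). The site was picked for these values, so neither the gap between the libraries nor the intervals measure a difference, and no test was made. A rise in alternative 3′SS use was common over all introns, as given above.

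**Figure D4:**
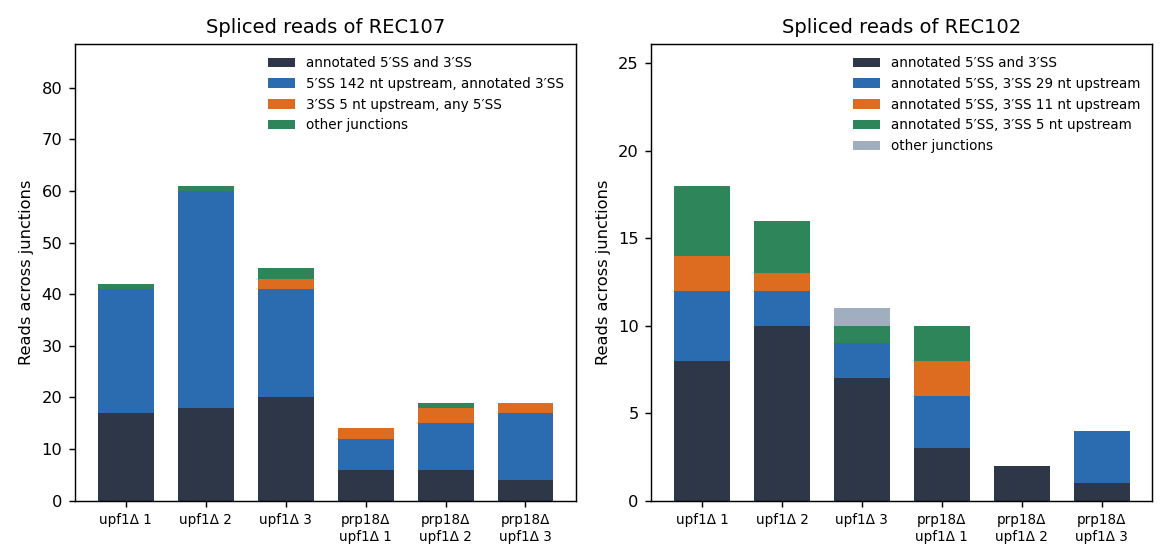
Bars stack the reads across each junction of *REC107* (left) and *REC102* (right) by library, with the number of reads on the vertical axis. In *REC107* the junction from the 5′SS 142 nt upstream is the largest part in the *upf1Δ* libraries, and in *REC102* the reads of all junctions number 18, 16 and 11 in *upf1Δ* and 10, 2 and 4 in *prp18Δupf1Δ*.

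*REC102* used 3 alternative 3′SS upstream of its AAG, the UAG at 29 nt, the CAG at 11 nt and another AAG at 5 nt upstream, at 16, 34 and 40 nt from the branch point. The UAG had 4, 2 and 2 reads in *upf1Δ* and 3, 0 and 3 in *prp18Δupf1Δ*. The CAG had 2, 1 and 0 and then 2, 0 and 0, and the upstream AAG had 4, 3 and 1 and then 2, 0 and 0. Thus, of the reads at these 3 sites and the annotated junction, 10 of 18, 6 of 16 and 3 of 10 in *upf1Δ* and 7 of 10, 0 of 2 and 3 of 4 in *prp18Δupf1Δ* ended at 1 of the alternative sites. A further read in *upf1Δ* replicate 3 joined other sites at both ends, did not pass the filters and is not counted here. The strains overlapped, at pooled shares of 43.2% (28.3 to 59.0%) and 62.5% (35.4 to 84.8%).

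Relative to annotated reads, the log2 changes of these sites were 1.59 ± 1.03 for the UAG (adjusted p = 0.246 by edgeR), 1.43 ± 1.52 for the CAG (0.521) and 0.13 ± 3.58 for the upstream AAG (0.979). Relative to annotated plus unspliced reads, the upstream AAG of *REC102* fell by 3.03 ± 1.07 on the log2 scale (adjusted p = 0.0330), where 62 of 562 alternative 3′SS fell (11.0%) and 144 rose (25.6%). This rests on 10 reads, DESeq2 did not call it (adjusted p = 0.0739), and it was lost without either of replicates 1 and 2 of *upf1Δ* or of replicates 2 and 3 of *prp18Δupf1Δ* (adjusted p of 0.0732 to 0.208), at log2 changes of -3.06 to -2.42. Both of its reads in *prp18Δupf1Δ* were in replicate 1, and without that library the fit gave -6.04 (adjusted p = 0.00577), and without replicate 1 of both strains -5.40 (0.160), values fitted against 0 reads that are no measure of size. All 3 alternative products and unspliced *REC102* RNA keep 58 to 66 codons before a stop, against 264 in the annotated product.

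In *DMC1* an AAG at 12 nt upstream of the annotated UAG had 1, 1 and 3 reads in *upf1Δ* and 2, 0 and 1 in *prp18Δupf1Δ*. Its share of these and the annotated reads was 22.7% (7.82 to 45.4%) and 42.9% (9.90 to 81.6%), which overlap widely, and the log2 change of use was 1.29 ± 1.32 (adjusted p = 0.502 by edgeR). All of its 11 gapped reads were aligned across the junction by both aligners. The product keeps the reading frame of the exons but meets a stop after 47 codons, against 334 codons in the annotated one.

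In intron 2 of *HOP2* the alternative site was an AAG at 4 nt downstream of the annotated CAG. It had 1 read in each *upf1Δ* library and 6, 3 and 2 in *prp18Δupf1Δ*. Its share of these and the annotated reads was 3.37% (0.701 to 9.54%) against 8.59% (4.37 to 14.9%), and the log2 change of use was 1.27 ± 0.83 (adjusted p = 0.251). All 16 gapped reads were aligned across this junction by BBMap alone. For the reading frame, intron 1 was taken as removed at its annotated sites, although no read of that junction was seen. On this basis the product reads 247 codons before a stop and unspliced RNA reads 218, against 214 in the annotated product, so neither would end early. Unspliced *REC114* RNA does not end early either, at 435 codons against 428.

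Transcript levels were compared by the annotated plus unspliced reads at each intron, as library-scaled counts (CPM, by edgeR) with TMM over all introns tested, so a level is relative to other intron-containing transcripts. Each value counts reads at 1 intron, and gene length does not enter it. *REC107* had 363, 391 and 413 CPM in *upf1Δ* and 660, 601 and 622 in *prp18Δupf1Δ*. *REC102* had 10.7, 15.6 and 15.0 and then 38.0, 43.3 and 43.75, and *HOP2* intron 2 had 23.0, 20.1 and 23.1 and then 47.5, 41.5 and 36.6. In these 3 all *prp18Δupf1Δ* libraries lay above all *upf1Δ* libraries, as in 62 of all 272 introns tested (22.8%).

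The level rose in these 3 of the 5 meiotic transcripts tested and fell in none, beside 44 of all 272 that rose (16.2%) and 30 that fell (11.0%). *REC102* rose 3.00-fold, with a log2 change of 1.58 ± 0.26 (adjusted p = 0.00656 by edgeR). *REC107* rose 1.61-fold, at 0.69 ± 0.13 (adjusted p = 0.00842), and *HOP2* 1.90-fold, at 0.93 ± 0.24 (adjusted p = 0.0281). With TMM over introns outside RPGs, which shifted the median of all introns from 0.02 to -0.23, the changes were 1.32 (adjusted p = 0.0125), 0.43 (0.0665) and 0.68 (0.0848), so that only *REC102* stayed past the threshold. The call of *HOP2* was also lost by DESeq2 (adjusted p = 0.108) and without either of replicates 2 and 3 of either strain (0.0612 to 0.131).

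The rise of *REC102* was one of unspliced reads, since its annotated reads went down from 25 to 6 over the 3 libraries while its unspliced reads went from 37.5 to 133.5. The same held for *REC107*, with annotated reads of 55 and then 16 and unspliced reads of 1684.5 and then 2094.5. In *HOP2* intron 2 both counts were higher, with annotated reads of 86 and then 117 and unspliced reads of 12.5 and then 25.5. *REC114* had 24.5, 19.5 and 15.0 CPM in *upf1Δ* and 12.7, 19.0 and 10.2 in *prp18Δupf1Δ*, with a log2 change of -0.48 ± 0.36 (adjusted p = 0.367). *DMC1* had 6.13, 4.54 and 1.87 and then 2.38, 0.90 and 1.02, at -1.41 ± 0.75 (adjusted p = 0.201), and with the replicate number as a block it passed as lower (adjusted p = 0.0369). In *upf1Δ* the order of mean levels was *REC107* (389 ± 24.8, SD, n = 3), *HOP2* (22.1 ± 1.70), *REC114* (19.7 ± 4.79), *REC102* (13.8 ± 2.63) and *DMC1* (4.18 ± 2.15), and *HOP2* and *REC114*, and *REC114* and *REC102*, overlapped as neighbours. In *prp18Δupf1Δ* it was *REC107* (628 ± 30.1), *HOP2* (41.9 ± 5.45) and *REC102* (41.7 ± 3.20), which overlapped, then *REC114* (13.9 ± 4.53) and *DMC1* (1.43 ± 0.82). In bulk libraries, a low level in all cells and a higher level in few cells cannot be told apart.

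**Figure D5:**
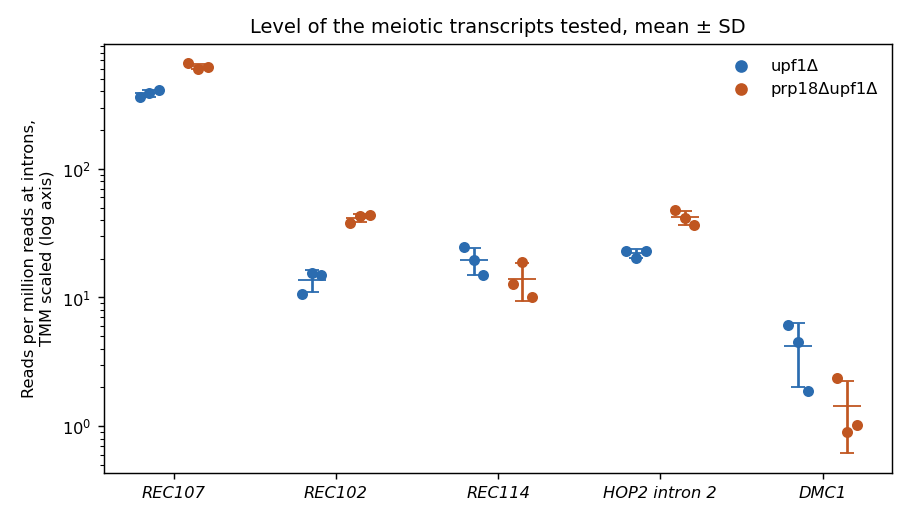
The vertical log axis gives annotated plus unspliced reads as TMM-scaled CPM, with points for libraries and bars for the mean ± SD of 3, blue for *upf1Δ* and orange for *prp18Δupf1Δ*. *REC107*, *REC102* and *HOP2* intron 2 lie higher in all *prp18Δupf1Δ* libraries, and *REC114* and *DMC1* overlap between the strains.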

How the data were processed

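Junction tables of 6 stranded mRNA libraries, 3 of *upf1Δ* and 3 of *prp18Δupf1Δ*, were used. The authors trimmed reads with cutadapt 1.18, aligned them with STAR 2.7.0d and BBMap to R64 and kept the better alignment of each pair. The deposited junction counts are raw counts per junction and library, with no normalization and no pooling by the authors. Unspliced reads were deposited as an estimated count, with the authors halving the sum of reads through the 5′SS and through the 3′SS. For annotated junctions the deposited SE is a fraction, while for alternative junctions SE and FAnS were deposited as a ratio. Recomputed from the counts, annotated SE matched in 12588 of 12588 entries and FAnS in 12550 of 12550. Reads at the 2 unspliced sites are given only as this mean, so the planned comparison between them was not made.

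The libraries' counts were compared with edgeR 4.0.16 (R 4.3.3) by the quasi-likelihood test on 2 counts per library and intron or junction, with a term per library, fitted over the 272 introns that had 10 or more reads in total and 1 or more per library, or over the 562 alternative 3′SS and 322 alternative 5′SS junctions together, with Benjamini-Hochberg adjustment and a threshold of 0.05. Unspliced reads entered the test of splicing as the sum over both sites, and were rounded for levels, where TMM was used. Junctions needed perfect overhangs (10 bp upstream, 40 bp downstream), 50% of reads free of mismatches within 10 bp, and 6 gapped reads. DESeq2 1.42.0, limma 3.58.1 (pseudocount 0.5), other filters and scalings and leaving out libraries served as alternatives. Tests were tested on simulated data. Sequences, reading frames and shares were computed with python 3.11.15, pandas 2.3.3 and scipy 1.17.1. The members, gene lists and tests were chosen with earlier results of these data known, and every member is named whether it passed or not.

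The labels number the replicates alike in both strains. Deviations from the strain means correlated between same-numbered libraries at r = 0.583, 0.305 and 0.377 over 272 introns. The cross pairs of replicates 2 and 3 gave 0.342 and 0.369, so a pairing of these by number was not shown. Those of replicate 1 with replicates 2 and 3 of the other strain gave -0.515 to -0.409, against 0.583 between the libraries numbered 1. Replicate 1 thus deviated alike in both strains. The main tests did not pair libraries, and the replicate number entered only as a block in an alternative.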

Additional observations from a re-analysis of the deposited data

How the results depend on the processing

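The falls of annotated splicing in *REC102* and *REC107* and the rise in the level of *REC102* were called under each alternative run, and the log2 changes stayed within -4.31 to -3.53, -2.22 to -1.96 and 1.43 to 1.68 when libraries were left out, replicate 1 of both strains included. Of 267 values of single introns and junctions under the alternatives, 238 kept their direction and side of the threshold, 17 fell short of it, 2 passed it newly and 10 changed sign, the last all among values that were not called. With the replicate number as a block, *DMC1* passed as lower in level (-1.49), so that 1 meiotic transcript was lower, the levels of 82 introns rose and of 77 fell (44 and 30 without), splicing passed as higher in 1 intron (0 without), and the use of the *REC102* AAG turned to -0.22. The block changed no other call of a meiotic intron or junction. With TMM outside RPGs, the levels of 25 introns rose and 52 fell, 1 of them meiotic among those that rose, and relative to total annotated reads 12 fell.

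For alternative 3′SS use over all introns, 118 rose with at least 20 gapped reads, and 24 fell by DESeq2, 26 with at least 1 gapped read and 28 with no quality filter. For alternative 5′SS use, 3 rose and 29 fell both by DESeq2 and with at least 1 gapped read, and 34 fell with no quality filter. The upstream AAG of *REC102*, the only meiotic 3′SS called lower relative to annotated plus unspliced reads, left 0 calls by DESeq2, with at least 20 gapped reads, with at least 1 and with no quality filter.

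Leaving out each library in turn, 189 to 252 introns fell in splicing and 0 to 1 rose, and 2 to 3 meiotic ones fell. For levels, 26 to 59 rose and 10 to 42 fell, and 2 to 3 meiotic ones rose. Alternative 3′SS use rose at 137 to 165 sites and fell at 27 to 37, and 5′SS use rose at 3 to 6 and fell at 28 to 51. Relative to annotated plus unspliced reads, 108 to 129 alternative 3′SS rose and 39 to 54 fell, 0 to 1 of them meiotic, and 3 to 4 alternative 5′SS rose and 40 to 63 fell. Without replicate 1 of both strains, 2 introns rose in splicing, 110 rose and 92 fell in level, 3′SS use rose at 116 sites and fell at 25, and 5′SS use rose at 2 and fell at 21. In the same setting, relative to annotated plus unspliced reads, 87 alternative 3′SS rose and 38 fell, 2 alternative 5′SS rose and 29 fell, with 0 meiotic sites called, and the use of the *REC102* CAG was -0.39 and of its AAG -2.10. The log2 change ranged from -1.20 to 0.60 for *HOP2* intron 2 and from -4.17 to 0.61 for *DMC1*, and that of use from -1.27 to 2.27 for the *REC102* CAG, from -2.56 to 0.66 for its AAG and from -0.32 to 0.51 for the *REC107* upstream 5′SS. The cause of these shifts was not tested.

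Separate tests on reads at the unspliced 5′SS or 3′SS could not be run, since the tables give their mean. A pair of alternatives, unspliced reads as deposited and alternative reads added to the level, were added after seeing the data and changed no call of a member. Depth is a limit for the members, since 6 of 11 introns lacked a value in at least 1 library.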
